A study of Rattus norvegicus with 8 samples.

Results

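Chemokines, interleukins and their receptors are the signals by which immune, stromal and endothelial cells of the testis address one another and the germ cells. The set comprised every array probe whose RefSeq transcript belongs to a rat gene with a symbol starting Ccl, Cxcl, Ccr, Cxcr or Il followed by a digit. That rule took 126 of the 30367 non-control probes, for 116 of the 15154 genes the array names. A further 15 of the 131 rat genes with such symbols, among them the interleukin-1 receptor Il1r1, had no named probe. The probes were read on 8 one-colour Agilent arrays of RNA from testis cells sorted for CD9, a tetraspanin on the surface of spermatogonia and of other cells. All rats were Sprague-Dawley and carried a GFP transgene specific to germ cells, the promoter of which is not given in the sources used here. The groups came from rats of 4 months (young, n = 4) and of 21 months (aged, n = 4), with 18 ng of RNA labelled for each array. The labels do not say whether the arrays stand for separate animals, and each p-value therefore weighs a difference only against the scatter of these arrays, part of which may be technical.

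Chemokines are small secreted proteins that guide cells along a gradient. They are named CC or CXC after the spacing of their first conserved cysteines and act through G protein-coupled receptors, Ccr for the former and Cxcr for the latter. Interleukins act through other receptor families, mostly built from a ligand-binding chain and a shared signalling chain such as Il6st (gp130) or Il2rg (the common gamma chain), which engage JAK kinases and STAT factors, while the interleukin-1 and interleukin-17 families lead to NF-kB. In the testis, resident macrophages, peritubular and interstitial stromal cells and Sertoli cells are known sources, and Cxcl12 from niche cells signals to Cxcr4 on spermatogonial stem cells.

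Signals are given on the log2 scale relative to the 75th percentile of the array's probes, an intensity of 326 to 524 units, so that 0 marks a probe as bright as that percentile. Cd9 itself lay between -1.91 and -1.13 on the 8 arrays, and Gfra1 and Zbtb16, markers of undifferentiated spermatogonia, were well above background on all of them. Markers of other cells were present too: 13 of 16 macrophage and myeloid markers and 12 of 15 peritubular myoid and stromal markers could be tested. Standing apart from their groups in these markers were 2 arrays, young replicate 1 and aged replicate 2, each with the lowest summed stromal signal of its group (4.88 and 3.097 times the percentile signal). All arrays lay on 1 slide. Young arrays filled one of its rows and aged arrays the other, and an effect of the row cannot be told apart from one of age.

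Most of the set was at or near background. A probe counts here as well above background when a share of at least 0.5 of its spots carries that flag of the scanner software. Of the 126 probes, 43, 64, 64 and 62 met this on young replicates 1 to 4, and 58, 45, 42 and 60 on aged replicates 1 to 4. The ranges of the age groups overlap, with young replicate 1 and aged replicates 2 and 3 low. Over all probes of the array 65.4% to 72.0% were well above background in young and 63.0% to 69.2% in aged samples, against 33.3% to 50.8% of the probes of this set. No test was made on these counts, since the members were chosen with earlier results known.

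**Figure D1:**
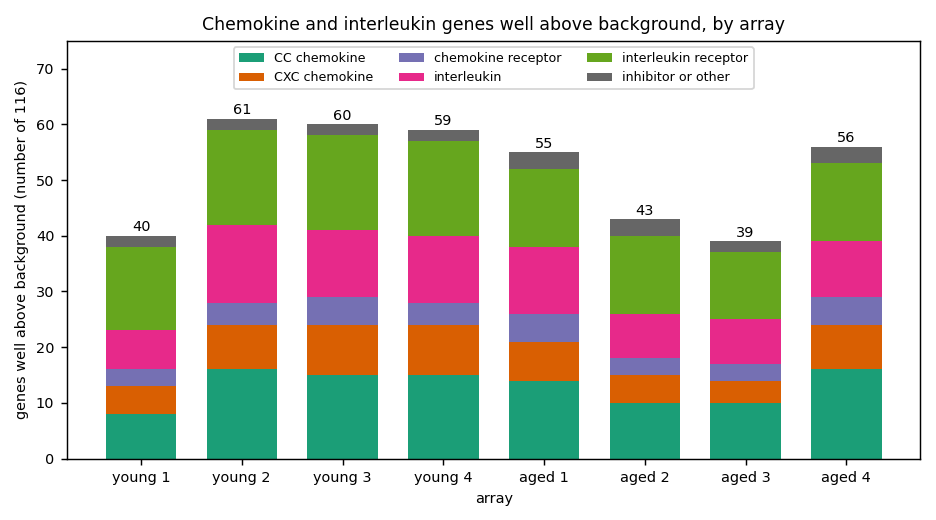
Stacked bars give, for each of the 8 arrays on the x axis, the number of the 116 genes with a probe well above background, coloured by role. Totals run from 40 to 61 in young and from 39 to 56 in aged arrays, and interleukin receptors and CC chemokines make up the largest blocks on every array.

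By gene, 39 of the 116 were tested, meaning that a probe reached this mark in all 4 samples of the young group, the aged group or both. Another 38 were above background on some arrays without meeting that filter, and 39 on none. Tested genes were 10 of 20 CC chemokines, 5 of 11 CXC chemokines, 2 of 16 chemokine receptors, 6 of 33 interleukins, 14 of 32 interleukin receptors and 2 of 4 inhibitors. The genes above background on no array include classical inflammatory and lymphoid signals: Il6, Il10 and Il1a among the interleukins, the interleukin-1 antagonist Il1rn, and the receptors Ccr1, Ccr2, Ccr4, Ccr7, Cxcr1, Cxcr2, Cxcr3, Cxcr5 and Cxcr6. Below background means only that these arrays did not measure the transcript.

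None of the 39 tested members differed between aged and young cells at a Benjamini-Hochberg adjusted p under 0.05 (limma, over 10236 genes), where 0.655% of all genes tested did (0.498% higher and 0.156% lower in aged cells). At an unadjusted p under 0.05 the members' count was 10 of 39, where it was 31.4% of all genes. In 2 members, both lower in aged cells, the groups did not overlap (4.11% of all genes were separated in that direction), and in 0 members were the aged values all higher (10.2% of all genes). The median difference over the 39 was -0.07 on the log2 scale, with 21 values below 0 and 18 above, while the median over all genes tested was 0.11 and 36.6% of them were below 0. Members chosen by name and filtered on signal are no random sample, and no test was made of this contrast. The member median became 0.08 with median scaling, which moved the median of all genes to 0.26, and -0.53 with scaling to spike-in RNA, which moved it to -0.35. Both scalings shift all genes of an array alike, so the member median minus that of all genes stayed at -0.18. That gap was -0.02 with quantile scaling, and -0.04 and -0.07 with normexp correction before quantile and percentile scaling. It was -0.21 with array weights and -0.25 without young replicate 1.

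**Figure D2:**
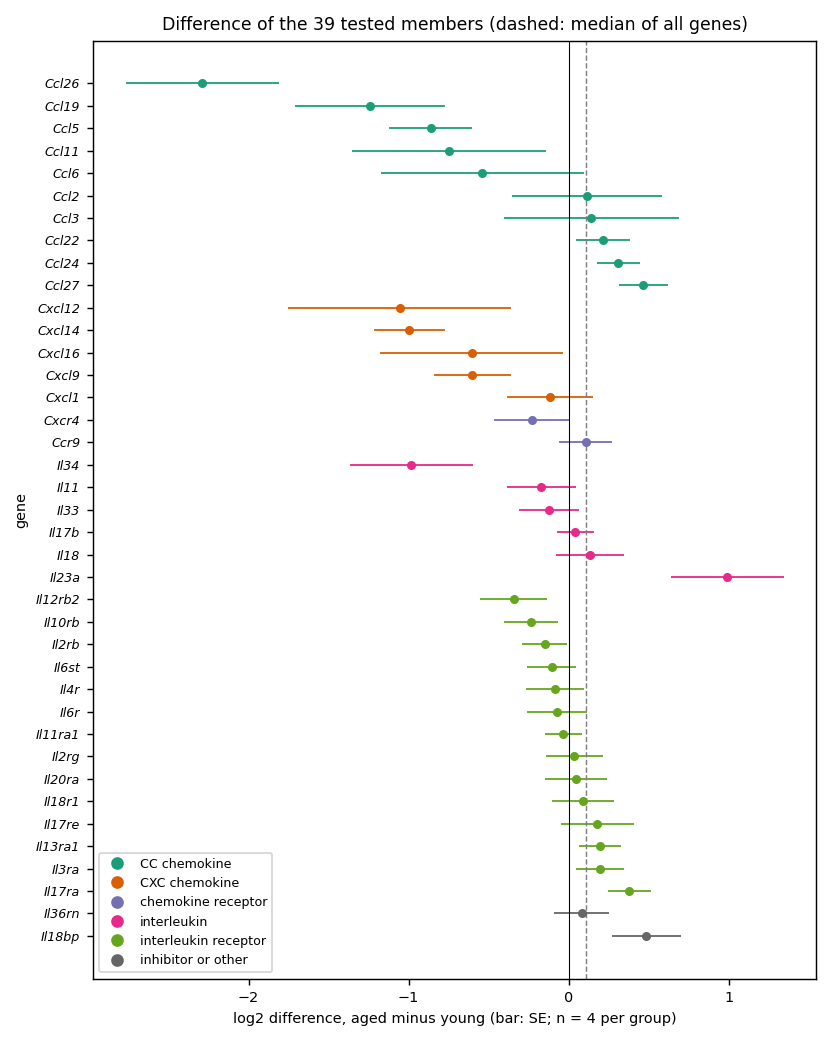
Points give the log2 difference, aged minus young, of each of the 39 tested genes on the x axis with its standard error (n = 4 per group), grouped by role on the y axis, and the dashed line marks the median of all genes, 0.11. The chemokine ligands spread from -2.29 (Ccl26) to 0.47 (Ccl27), while every interleukin receptor lies between -0.34 and 0.38.

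Among the CC chemokines the eotaxin Ccl26, which attracts eosinophils through Ccr3, had the largest difference of the set. Its only probe has 1 spot per array, so no spots were averaged. Its log2 signals were -0.32, 0.95, 1.70 and 1.99 on young replicates 1 to 4 and -0.91, -2.01, -1.02 and -0.89 on aged replicates 1 to 4. Every aged value lay below every young value, and young replicate 1 was the nearest to the aged arrays. The difference was -2.29 ± 0.48 (SE, n = 4 per group), a 4.89-fold lower signal in aged cells, and missed the threshold (limma, adjusted p = 0.0556). It passed with median scaling (adjusted p = 0.0310), spike-in scaling (0.0401), normexp correction before percentile scaling (0.0354), an intensity trend in the variance (0.0443) and array weights (0.00147), and over all alternatives its adjusted p ran from 0.000844 to 0.272. Those 5 settings called 1330, 1067, 630, 427 and 4564 of all 10236 genes in that order, against 67 in the main fit. Passing in them, here and for the members below, is therefore no result about a single member.

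Ccl5 (RANTES), a chemoattractant of T cells and monocytes, stood at -2.76, -1.45, -1.72 and -1.74 in young and at -2.68, -3.01, -2.83 and -2.61 in aged cells. Young replicates 2 to 4 were thus above all aged ones, and young replicate 1 lay within the aged range. The difference was -0.86 ± 0.26 (adjusted p = 0.0828). It passed at -1.32 with spike-in scaling (adjusted p = 0.0473) and at -1.08 with array weights (0.00168), and was -0.47 with normexp correction and percentile scaling. Spike-in scaling called 1067 and array weights 4564 of all 10236 genes.

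Ccl19, a ligand of the lymphoid homing receptor Ccr7, gave -2.05, -0.19, -0.13 and 0.12 in young and -1.70, -2.60, -1.46 and -1.45 in aged cells. Here too young replicate 1 fell among the aged values and the other young arrays lay above them. The difference was -1.24 ± 0.47 (adjusted p = 0.118), and passed at -1.58 with array weights (0.00338), where 4564 of all 10236 genes passed. Its receptor Ccr7 was above background on no array.

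Ccl11, the founding eotaxin and a product of stromal cells, was measured at -2.60, -0.96, -0.78 and -0.87 in young and at -1.34, -3.84, -1.40 and -1.63 in aged cells. Young replicate 1 and aged replicate 2 stood far below their groups, and the groups overlap. The difference was -0.75 ± 0.61 (adjusted p = 0.407), with -0.15 without aged replicate 2 and -1.18 without young replicate 1.

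The eotaxin Ccl24, chosen with Ccl11 after the values were seen, had values in the other direction: 3.90, 3.73, 3.39 and 3.45 in young and 3.92, 4.05, 3.89 and 3.86 in aged cells, a difference of 0.31 ± 0.13 (adjusted p = 0.153). Young replicate 1 lay within the aged range and the other young arrays below it. The eotaxin receptor Ccr3 was above background on 1 of 8 arrays. With scaling to spike-in RNA the Ccl24 value turned negative, as did those of all tested CC chemokines with higher values except Ccl27.

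Ccl27, a skin-associated chemokine that binds Ccr10, also had higher values in aged cells. It gave -1.26, -0.82, -1.45 and -1.10 in young and -0.60, -0.51, -0.84 and -0.82 in aged cells, with the groups touching only at young replicate 2. The difference was 0.47 ± 0.15 (adjusted p = 0.0934), with 0.62 and an adjusted p of 0.0418 under median scaling, 0.43 and 0.0409 under array weights, and 0.01 under scaling to spike-in RNA. Ccr10 was above background on 1 young and 3 aged arrays and was not tested.

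The monocyte chemoattractant Ccl2 was at -5.42, -3.53, -3.80 and -3.87 in young and at -4.00, -4.82, -4.31 and -3.03 in aged cells, a difference of 0.12 ± 0.47 (adjusted p = 0.881) that changed sign in 5 alternatives. Young replicate 1 was the lowest of all 8 and was not well above background. Ccl3, Ccl6 and Ccl22 had differences of 0.14, -0.54 and 0.21, with standard errors of 0.55, 0.63 and 0.17. Ccl3 was -0.45 without young replicate 1, and Ccl6 was -0.0071 without aged replicate 2 and -1.09 without aged replicate 4. In all, 5 of the 10 tested CC chemokines had lower and 5 higher values in aged cells, and 0 passed the test. Ccl2 and Ccl3 entered the test through the aged group alone, which favours higher values. Ccl6 entered through the young group alone, which favours lower ones. With all 8 arrays required, 4 values were lower and 3 higher (median -0.75). Without young replicate 1, or without aged replicate 4, the values were lower for 7 and higher for 3.

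The 5 tested CXC chemokines had lower mean values in aged cells (median -0.61), and 0 passed. Cxcl1, Cxcl12 and Cxcl14 entered the test through the young group alone, which favours lower values, and with all 8 arrays required 2 CXC genes remained. Among the untested, Cxcl2, above background on 3 young and 2 aged arrays, had a higher mean value in aged cells (0.71), as had Cxcl6 (0.38), below background on all arrays. The untested Cxcl10 (-1.50), Cxcl13 (-1.37) and Cxcl11 (-0.11) had lower mean values in aged cells, and Cxcl17 differed by 0.008. Cxcl1, the smallest difference of the 5 tested, turned positive with quantile or median scaling, with normexp correction and without young replicate 2 or aged replicate 4. Cxcl14, a homeostatic chemokine of epithelia and stroma, had separated groups, with -3.77, -3.19, -2.74 and -2.86 in young and -3.94, -4.10, -4.39 and -4.12 in aged cells. Young replicate 1 came closest to the aged values, and 3 of 4 aged arrays were well above background. The difference was -0.996 ± 0.220, or 1.99-fold lower, with an adjusted p of 0.0561 (limma). It passed with median scaling (adjusted p = 0.0380), spike-in scaling (0.0431), an intensity trend (0.0474) and array weights (0.00147), and was -0.33 with normexp correction and percentile scaling. The settings in which it passed called 1330, 1067, 427 and 4564 of all 10236 genes in that order.

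Cxcl9, an interferon-induced ligand of Cxcr3, read -4.17, -3.72, -3.76 and -3.81 in young and -3.91, -5.16, -4.34 and -4.45 in aged cells, a difference of -0.60 ± 0.24 (adjusted p = 0.135). The groups overlapped through young replicate 1 and aged replicate 1. It passed at -1.06 with spike-in scaling (adjusted p = 0.0482) and at -0.66 with array weights (0.0191), and was -0.06 with normexp correction and quantile scaling. Of all 10236 genes, 1067 passed with spike-in scaling and 4564 with array weights. Cxcl10, another interferon-induced Cxcr3 ligand chosen after its values were seen, was above background on 3 arrays of each group and was not tested. Its values were -5.75, -2.41, -2.27 and -2.34 in young and -4.41, -6.19, -4.41 and -3.76 in aged cells, with young replicate 1 and aged replicate 2 at the bottom. Cxcr3 was above background on no array.

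Cxcl12, the niche chemokine, stood at -4.18, -2.97, -2.92 and -2.73 in young and at -3.27, -6.60, -3.39 and -3.77 in aged cells. Its low arrays were young replicate 1 and aged replicate 2, the latter not above background, and the groups overlap. The difference was -1.06 ± 0.70 (adjusted p = 0.316), and -0.27 without aged replicate 2. A second Cxcl12 probe had the same direction, with group means of -3.87 in young and -5.21 in aged cells.

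Cxcl16, the membrane-bound ligand of Cxcr6, shared this layout, with -3.32, -1.59, -1.83 and -1.70 in young and -1.98, -4.38, -1.97 and -2.52 in aged cells. Its difference of -0.61 ± 0.57 (adjusted p = 0.480) shrank to -0.05 without aged replicate 2. Cxcr6 was above background on no array.

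The start regions of 4 chemokine genes are shown because their transcripts had the largest separation between the groups or the 3 high young arrays in common: Ccl26 (chr12:26745722-26745971, plus strand), Cxcl14 (chr17:8322900-8323149, plus strand), Ccl19 (chr5:61761165-61761414, minus strand) and Cxcl10 (chr14:15988816-15989065, plus strand). Each is the 250 bases before the annotated start, 5′ to 3′ on the gene's strand, from RefSeq (assembly GRCr8). Capitals mark matches on either strand to the NF-kB consensus, to the AP-1 motif TGANTCA, to the STAT motif TTCNNNGAA or to the IRF motif GAAANNGAAA.
Ccl26: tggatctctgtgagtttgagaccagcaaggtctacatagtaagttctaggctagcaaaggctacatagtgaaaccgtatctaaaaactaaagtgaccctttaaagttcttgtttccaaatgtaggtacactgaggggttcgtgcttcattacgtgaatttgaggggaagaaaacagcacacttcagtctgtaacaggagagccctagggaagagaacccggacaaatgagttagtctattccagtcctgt
Cxcl14: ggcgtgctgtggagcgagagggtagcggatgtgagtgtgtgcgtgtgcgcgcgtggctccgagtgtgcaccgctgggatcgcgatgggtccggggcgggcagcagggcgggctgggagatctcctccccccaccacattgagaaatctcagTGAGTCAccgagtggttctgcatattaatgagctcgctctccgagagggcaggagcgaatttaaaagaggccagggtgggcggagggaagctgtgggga
Ccl19: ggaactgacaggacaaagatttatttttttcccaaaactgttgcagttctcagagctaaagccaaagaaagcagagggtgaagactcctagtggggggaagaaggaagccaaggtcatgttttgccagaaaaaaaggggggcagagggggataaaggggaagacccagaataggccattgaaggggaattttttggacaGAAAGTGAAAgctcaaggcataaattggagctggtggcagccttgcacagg
Cxcl10: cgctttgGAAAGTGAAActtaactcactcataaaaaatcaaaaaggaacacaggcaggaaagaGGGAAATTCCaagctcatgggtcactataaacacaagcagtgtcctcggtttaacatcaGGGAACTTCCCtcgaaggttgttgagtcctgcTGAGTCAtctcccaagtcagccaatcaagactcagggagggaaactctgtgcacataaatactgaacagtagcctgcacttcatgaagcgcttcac
Ccl26 held none of these letters in the window, Cxcl14 held 1 AP-1 match, Ccl19 held 1 IRF match, and Cxcl10 held matches to NF-kB, AP-1 and IRF, with NF-kB matches on opposite strands overlapping. Cxcl9, Cxcl12 and Cxcl16 had the 3 high young arrays too. Their windows held 0 matches to each of these motifs and are not shown, so the 4 printed are a selection.

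Promoters of the same length were found for 89 of the 116 genes. An NF-kB match was present in 15.7% of the 89 and in 6.41% of all 27457 RefSeq promoters. Among the 27 members tested, the share was 7.41%, and among the 8445 promoters of all genes tested it was 8.08%. The shares for AP-1 were 12.4% and 6.36%, for STAT 10.1% and 7.52%, and for IRF 6.74% and 3.29%, in the 89 and in all promoters. These are counts of letters, and a match is not a bound site.

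**Figure D3:**
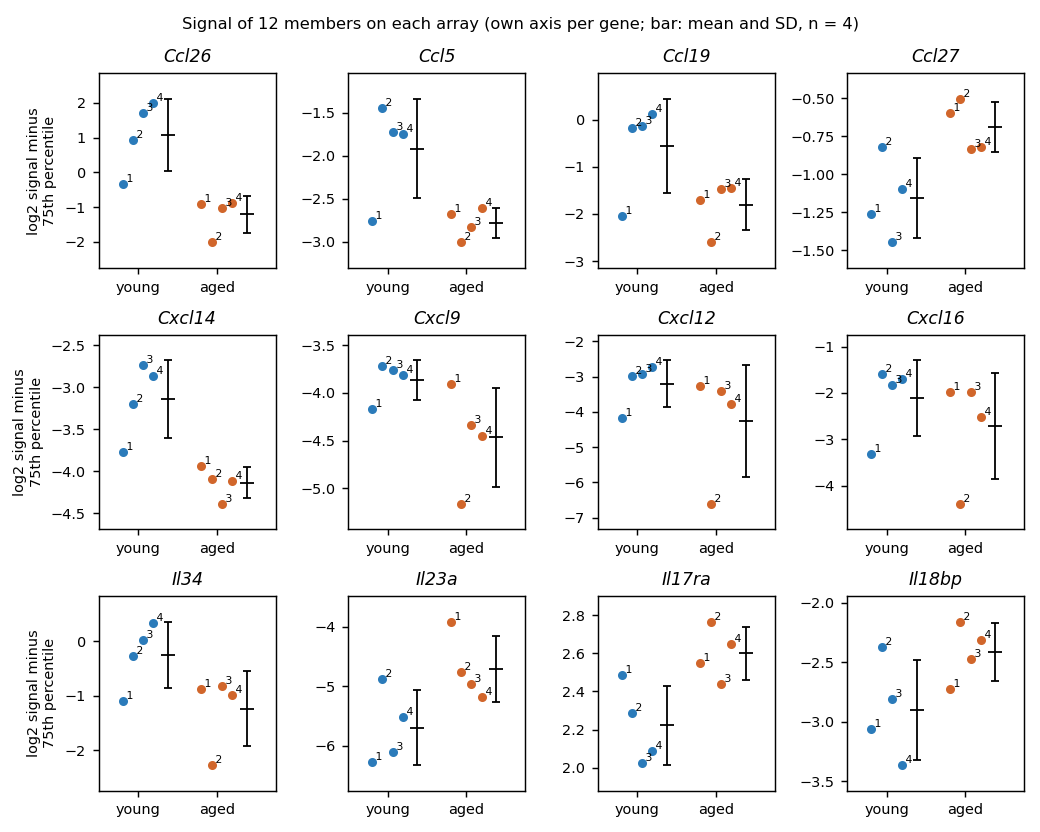
Each panel plots 1 gene on its own y axis (log2 signal minus the 75th percentile of the array) with young arrays in blue and aged arrays in orange, numbered by replicate, and a bar for the mean and SD (n = 4). In Ccl26 and Cxcl14 the groups are separate, while in Ccl5, Ccl19 and Il34 young replicate 1 lies within the aged range and in Cxcl12 and Cxcl16 aged replicate 2 lies far below all others.

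Of the 16 chemokine receptors only Cxcr4 and Ccr9 could be tested. Cxcr4, the receptor for Cxcl12, gave -4.62, -3.52, -3.68 and -4.00 in young and -3.87, -4.39, -4.11 and -4.36 in aged cells. Its difference was -0.23 ± 0.24 (adjusted p = 0.524) and became -0.45 without young replicate 1, the lowest of the 8 arrays. Ccr9, a receptor of gut-homing lymphocytes, gave 0.13, -0.11, -0.54 and -0.40 in young and -0.00, 0.07, -0.29 and -0.25 in aged cells, a difference of 0.11 ± 0.17 (adjusted p = 0.672) that became -0.35 with scaling to spike-in RNA.

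Of the interleukins 6 of 33 were tested, and 0 passed. Il34, which shares the receptor Csf1r with the macrophage growth factor Csf1, gave -1.09, -0.27, 0.02 and 0.33 in young and -0.87, -2.27, -0.82 and -0.99 in aged cells. Young replicate 1 lay within the aged range, and the other young arrays lay above every aged array. The difference was -0.98 ± 0.38 (adjusted p = 0.125), with -0.64 without aged replicate 2, and passed at -1.16 with array weights (0.0126). With those weights 4564 of all 10236 genes passed.

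Il23a, which encodes the p19 subunit of interleukin-23, was near background in young cells, where 1 of 4 arrays passed, and well above it on all aged arrays. Its values were -6.27, -4.88, -6.11 and -5.52 in young and -3.91, -4.76, -4.96 and -5.18 in aged cells, with young replicate 2 inside the aged range. The difference was 0.99 ± 0.35 (adjusted p = 0.107), with 1.15 and an adjusted p of 0.0470 under median scaling and 0.24 under normexp correction with quantile scaling. Il12b, the partner subunit, was above background on no array. Il23a entered the test through the aged group alone, and that filter favours higher values in aged cells.

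Il11, of the gp130 family, gave -0.81, -1.56, -0.93 and -1.04 in young and -1.75, -1.29, -1.004 and -0.98 in aged cells, a difference of -0.17 ± 0.22 (adjusted p = 0.603). The alarmin Il33 gave -2.69, -3.43, -2.81 and -3.39 in young and -3.36, -3.06, -3.20 and -3.21 in aged cells, a difference of -0.12 ± 0.19 (adjusted p = 0.663) that changed sign with quantile or median scaling. Il18, released by the inflammasome, gave -4.21, -3.28, -4.16 and -3.99 in young and -3.52, -4.00, -3.85 and -3.75 in aged cells, a difference of 0.13 ± 0.21 (adjusted p = 0.681). In all 3 the groups overlap broadly, and young replicate 1 is the highest young array for Il11 and Il33 and the lowest for Il18. Il17b differed by 0.04 ± 0.11.

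Other interleukins were above background on some arrays and were not tested. The inflammatory Il1b passed on 3 young and 1 aged array, with values of -6.66, -4.25, -4.71 and -4.85 in young and -4.42, -6.03, -4.98 and -5.45 in aged cells. Its low arrays were again young replicate 1 and aged replicate 2. The lymphocyte attractant Il16 passed on 3 young and 2 aged arrays, and Il15 on 2 young and 0 aged arrays. Named after their values were seen, Il5, Il9 and the receptor chain Il20rb passed on 3 young and 0 aged arrays each, and the soluble interleukin-22 inhibitor Il22ra2 on 0 young and 3 aged arrays. Ccl9, a ligand of Ccr1, passed on 3 arrays of each group.

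Of the 14 interleukin receptors tested 0 passed, and their median difference was 0.001, with 7 values above and 7 below 0. With scaling to spike-in RNA all 14 values were lower in aged cells (median -0.45), and with median scaling 12 were higher (median 0.16). Il17ra, the shared receptor chain of the interleukin-17 family, had the smallest p among them, with 2.49, 2.29, 2.03 and 2.09 in young and 2.55, 2.77, 2.44 and 2.65 in aged cells. The groups overlap only through young replicate 1. The difference was 0.38 ± 0.13 (adjusted p = 0.107). It passed at 0.44 with array weights (adjusted p = 0.0108), as did 4564 of all 10236 genes, and was -0.08 with scaling to spike-in RNA. Its relative Il17re, the receptor chain for interleukin-17C, gave -2.40, -1.35, -1.79 and -1.84 in young and -1.34, -1.53, -1.89 and -1.91 in aged cells. It differed by 0.18 ± 0.23 (adjusted p = 0.602), with -0.01 without young replicate 1.

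The gp130 chain Il6st was steady across arrays, with -0.27, -0.49, -0.37 and -0.75 in young and -0.88, -0.65, -0.38 and -0.39 in aged cells, a difference of -0.11 ± 0.15 (adjusted p = 0.652). Il6r, which binds Il6 and then recruits gp130, gave -4.37, -4.08, -4.57 and -4.30 in young and -4.07, -4.11, -4.77 and -4.66 in aged cells, a difference of -0.07 ± 0.19 (adjusted p = 0.814). Il11ra1, the matching chain for Il11, gave -2.79, -2.73, -3.07 and -2.76 in young and -2.76, -2.98, -2.90 and -2.85 in aged cells, a difference of -0.03 ± 0.11 (adjusted p = 0.860). Both changed sign with quantile or median scaling and with normexp correction. The ligand Il6 was above background on no array, while Il11 was measured on all 8.

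Il12rb2, a chain of the interleukin-12 receptor, gave -3.41, -4.32, -4.31 and -3.97 in young and -4.45, -4.07, -4.37 and -4.51 in aged cells, a difference of -0.34 ± 0.21 (adjusted p = 0.280), and passed at -0.80 with spike-in scaling (0.0444). Il10rb, shared by receptors of the interleukin-10 family, gave -3.22, -2.43, -2.67 and -2.65 in young and -2.99, -3.00, -3.14 and -2.78 in aged cells, a difference of -0.24 ± 0.17 (adjusted p = 0.360), and passed at -0.38 with array weights (0.0274). Of all 10236 genes, 1067 passed with spike-in scaling and 4564 with array weights. Il13ra1, a binding chain for interleukin-13, gave -2.15, -2.33, -2.35 and -2.37 in young and -2.22, -1.90, -2.36 and -1.94 in aged cells, a difference of 0.19 ± 0.13 (adjusted p = 0.326). Young replicate 1 was the highest of all arrays for Il12rb2 and the lowest for Il10rb, and the groups overlap for all 3. The decoy receptor Il13ra2 was above background on 1 of 8 arrays. Il2rg, the common gamma chain, gave 3.42, 2.75, 2.84 and 2.58 in young and 2.83, 3.04, 2.91 and 2.95 in aged cells, a difference of 0.04 ± 0.18 (adjusted p = 0.903) that changed sign with quantile scaling (-0.08) and spike-in scaling (-0.42).

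Il3ra, the binding chain for interleukin-3, was read by 2 probes. The one used for the test ranged from 1.58 to 1.79 in young and from 1.51 to 2.20 in aged cells, a difference of 0.20 ± 0.15 (adjusted p = 0.381), and -0.26 with spike-in scaling. On the other probe, with 1 spot per array, the values were -2.26, -2.20, -2.26 and -2.52 in young and -2.10, -1.70, -1.61 and -1.78 in aged cells, with every aged value above every young value. Both probes pointed the same way, and this gene was chosen after its values were seen.

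Among the inhibitors Il18bp, the secreted binding protein that neutralises interleukin-18, gave -3.06, -2.37, -2.81 and -3.36 in young and -2.73, -2.16, -2.47 and -2.31 in aged cells. The groups overlap through young replicate 2, and the difference was 0.49 ± 0.22 (adjusted p = 0.160). Il36rn, the interleukin-36 antagonist, gave -2.51, -3.18, -3.25 and -3.18 in young and -3.08, -3.00, -2.81 and -2.89 in aged cells. It differed by 0.08 ± 0.17 (adjusted p = 0.763), and its young replicate 1 stood above all other arrays at -2.51. A second Il36rn probe was above background on no array, with group means of -7.26 in young and -7.05 in aged cells.

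Without young replicate 1, 8 of the 39 members passed (36.9% of all genes did), 6 of them lower in aged cells (14.6% of all genes were called lower) and 2 higher (22.3% called higher). Ccl26 (-2.76, adjusted p = 0.00314), Cxcl14 (-1.21, adjusted p = 0.00306), Ccl5 (-1.14, adjusted p = 0.00301), Ccl19 (-1.74, adjusted p = 0.00571), Il34 (-1.26, adjusted p = 0.0291) and Il10rb (-0.39, adjusted p = 0.0325) were lower in that limma fit. Il17ra (0.47, adjusted p = 0.0176) and Ccl24 (0.40, adjusted p = 0.0255) were higher. Leaving out aged replicate 2 as well kept the first 5 as lower and Il17ra as higher and added Ccl11 and Cxcl12 (-0.60, adjusted p = 0.0247) as lower, which gave 7 lower and 1 higher (13.9% and 13.5% of all genes). Leaving out any 1 of the other 7 arrays gave 0 calls among the members. Of all 10236 genes 1 was called without young replicate 2 and 0 in the rest of these fits, so this is no result about the members. The removal of both arrays was chosen after they were seen to stand apart. For Ccl26, Cxcl14, Ccl5, Ccl19, Il34 and Il10rb, young replicate 1 was the lowest young array, and for Il17ra and Ccl24 it was the highest. Leaving it out therefore enlarges the difference of all 8 by construction.

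Several marker lists were low on the arrays on which these ligands were low, and others were not. The summed signal of the 16 macrophage and myeloid markers ran from 9.39 to 29.3 times the percentile signal in young and from 6.41 to 19.1 in aged cells, and all 13 tested markers had lower values in aged cells (median -0.72), with 0 passing. Itgam was above background on no array, while Csf1r, the receptor for Il34, was above it on all 8 and the macrophage antigen Adgre1 on 4 young and 3 aged arrays, with a difference of -1.97 ± 0.44 (adjusted p = 0.0561). The summed signal of the 15 peritubular myoid and stromal markers ran from 4.88 to 19.7 in young and from 3.097 to 7.29 in aged cells. All 12 tested had lower values (median -1.36), with 1 passing, and Lum and Thy1 were above background on no array. Spermatid markers had a summed signal of 276 to 664 in young and 203 to 423 in aged cells, and spermatocyte markers one of 15.2 to 21.5 in young and 31.9 to 45.1 in aged cells, with 7 of 9 tested passing as higher. Sertoli markers summed to 3.77 on young replicate 1 and 5.15 on aged replicate 2, and to 9.35 to 13.6 on the other arrays, and 4 of 10 were tested with 0 passing. Leydig markers summed to 1.04 to 2.20 in young and 0.913 to 1.92 in aged cells, lowest on the same arrays, and 5 of 7 were tested with 0 passing, Lhcgr being above background on no array. The mean of the macrophage markers on aged replicate 4 (0.49) was close to that on young replicates 3 and 4 (0.50 and 0.51), while Ccl26, Ccl5, Ccl19, Cxcl14 and Il34 lay below their means there. Other CC chemokines were high on that array. Ccl6 (-2.65) and Ccl2 (-3.03) had their highest values of all arrays on it, and Ccl3 (-2.85) was higher only on young replicate 2 (-2.40). The part of these cell types in the chemokine differences was not tested, and in sorted bulk RNA fewer cells of a type and less RNA per cell cannot be told apart.

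**Figure D4:**
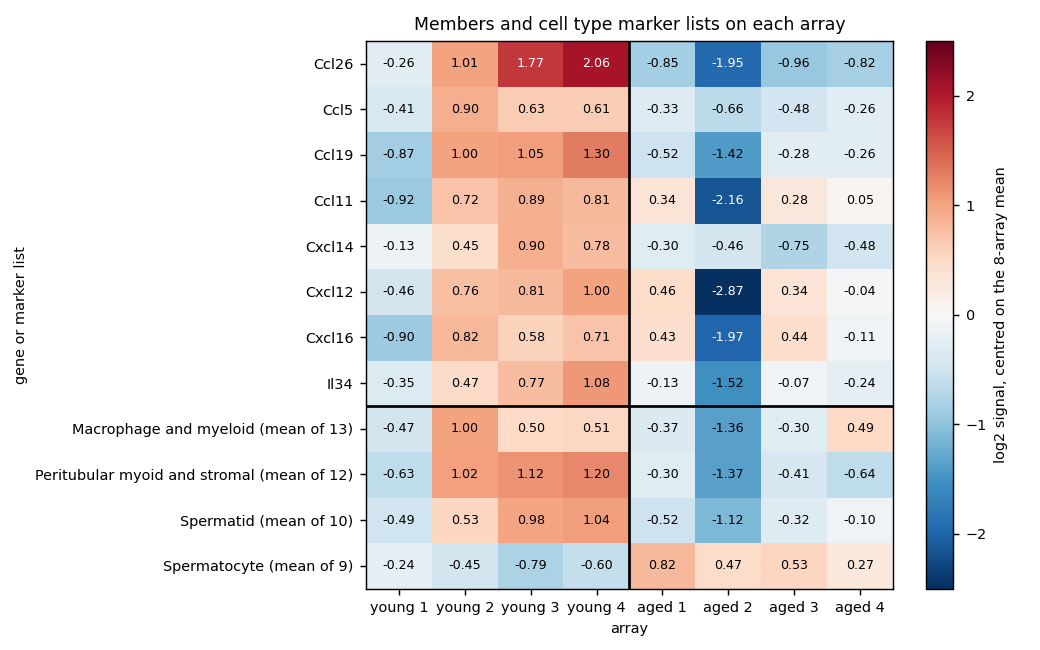
Each cell gives the log2 signal of 1 array (x axis) centred on the mean of the 8 arrays, for 8 chemokine and interleukin genes picked because they show this layout and, below the line, for the mean of 4 marker lists. Young replicates 2 to 4 are positive and young replicate 1 and aged replicate 2 negative for these 8 genes and for the macrophage, stromal and spermatid lists. Of the 39 tested members 14 had this layout, and 15 had young replicate 1 as their highest young array. The shares over all tested genes were not computed, so whether these counts are particular to the members is not known. Spermatocyte markers are negative on all young and positive on all aged arrays.

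T and NK cell markers, whose cells carry many of the receptors missing here, were measured with a summed signal of 0.891 to 1.02 in young and 0.852 to 0.963 in aged cells, with the highest sum on young replicate 1. Of the 12 markers 6 were tested and 0 passed, and Cd3g, Cd2, Cd8a and Cd5 were above background on no array. B cell markers summed to 0.065 to 0.080 in young and 0.075 to 0.087 in aged cells, with 1 of 5 tested. Endothelial markers summed to 1.44 to 1.81 in young and 1.22 to 1.47 in aged cells, with 0 of 5 tested passing.

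Signalling genes downstream of these receptors and cytokines outside the naming rule were read from 5 lists. Of 21 tested JAK, STAT and SOCS genes 0 passed, with 11 values above and 10 below 0 (median 0.004). The feedback inhibitor Socs2 had the smallest p, at -1.04 ± 0.22 (adjusted p = 0.0550), with separated groups and 1 of 4 aged arrays above background. Of 16 tested genes of interleukin-1 receptor, NF-kB and inflammasome signalling 0 passed (median 0.06), led by the inhibitor Nfkbib at 0.42 ± 0.11 (adjusted p = 0.0691).

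In the list of other cytokines and receptors 1 of 17 tested genes rose and 0 fell. That gene was Crlf2, the receptor chain for thymic stromal lymphopoietin, which pairs with Il7r. It stood at 3.67, 3.44, 3.45 and 3.54 in young and at 4.02, 4.27, 4.21 and 4.18 in aged cells, with every aged array above every young one, a rise of 0.64 ± 0.11 (limma, adjusted p = 0.0465). The call held in 12 of 26 alternatives and the value was 0.19 with spike-in scaling (adjusted p = 0.426). It was lost on leaving out any single array other than young replicate 1, with adjusted p between 0.0697 and 0.169. Its partner Il7r was above background on no array. Csf2ra, the receptor chain for the growth factor GM-CSF, had separated groups with 1.38, 1.25, 1.14 and 1.11 in young and 1.65, 1.89, 1.78 and 1.83 in aged cells, a difference of 0.56 ± 0.11 (adjusted p = 0.0527). The tumour necrosis factor receptor Tnfrsf1a stood at -0.81 ± 0.19 (adjusted p = 0.0561).

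Of the 6 tested chemokines and receptors outside the naming rule 0 passed (median -0.26), and of 14 tested genes of chemokine receptor signalling 0 passed (median 0.16). The atypical receptor Ccrl2 led the former at -0.43 ± 0.16 (adjusted p = 0.112) and the receptor kinase Grk5 the latter at 0.25 (adjusted p = 0.121).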

How the data were processed

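RNA of 8 samples was measured on 1-colour Agilent arrays. Per the file headers, the deposited processed signal is an intensity from which Feature Extraction 10.7.3.1 had subtracted background and a spatial trend, while the submitters' processing notes name version 12.5. The deposited flags for background, saturation and outliers are 0 or 1, and no spot was saturated. The authors' deposited series table holds log2 values centred per probe on the median, and differences between arrays matched those computed here within 0.0034 over 6564 bright probes, so its scale, direction and scaling to the 75th percentile were settled, and the centring removes each probe's level. Its column medians ran from -0.14 to 0.09.

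Outlier and control spots were left out, log2 signals of a probe were averaged, and each array was scaled by subtracting the 75th percentile of its non-control probes. Of 30367 probes 17998 matched a gene of RefSeq assembly GRCr8 by accession without version. Genes were read by their brightest probe passing the filter, and 10236 were fitted with limma 3.58.1 in R 4.3.3 (two-sided, 9.15 moderated degrees of freedom, Benjamini-Hochberg over all of them, threshold 0.05). The fit was tested on simulated data. The number of arrays limits the precision.

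Members named with values on every array are up to 4 of each role with the smallest p, those with separated groups, and a fixed list of testis-relevant genes, and every other member given with values was chosen after they were seen. The members and lists were chosen with earlier results of these data known. The alternatives tried covered scaling, background correction, the authors' values, filters, probe choice, the variance model, the replicate block and leaving out arrays. Some items are not reported here.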

Additional observations from a re-analysis of the deposited data

Results flagged for a closer look

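Single arrays that stood far from the other 3 of their group were looked for in the signals of the tested members and in the count of probes above background. The gap to the nearest array was divided by the range of the group, and ratios above Dixon's critical value for 4 samples are given. Of 80 such group values 11 were above it. The nominal rate of about 1 in 20 holds for independent values, and these genes share the same arrays. The share over all genes was not computed, so no excess can be read from this count. Young replicate 1 was the low array for Ccl11 (ratio 0.903), Cxcl16 (0.863), Ccl19 (0.860) and Cxcl12 (0.834) and for the number of member probes above background (0.905, with 43 against 62 to 64), and the high array for Il36rn (0.900). Aged replicate 2 was the low array for Ccl11 (0.885), Ccl26 (0.882), Il34 (0.881) and Cxcl12 (0.850). Aged replicate 4 was the low array for Il2rb, the shared chain of the interleukin-2 and interleukin-15 receptors (0.842, with -4.45 against -4.24 to -4.20). Young replicate 1 and aged replicate 2 had the lowest stromal marker sums of their groups, and the part of those markers in these values was not tested.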

How the results depend on the processing

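Of the 35 members for which a direction is given, 17 kept it under those of the 26 alternatives that could test them, Ccl26, Ccl5, Ccl19 and Il34 among them. An intensity trend, the replicate block, testing unnamed probes and no filter on dim probes left these differences unchanged. The authors' values left them nearly so, and a direction kept in these settings is no support. The share of all genes keeping their direction was not computed. For 4 of the 17 (Cxcl14, Cxcl12, Il23a and Ccl6) no setting gives support, since the filter let them in through 1 age group. Members called were 2 higher and 2 lower with median scaling (1330 genes called in all), 0 and 5 with scaling to spike-in RNA (1067), 0 and 1 with normexp and percentile scaling (630), 0 and 2 with an intensity trend (427), 3 and 7 with array weights (4564), and 1 and 7 without young replicate 1 and aged replicate 2 (2804, added after seeing the data). No member was called, and 253, 4, 0, 0 and 0 of all genes, with normexp and quantile scaling, the percentile over probes above background on all arrays, no scaling, no filter on dim probes, and unnamed probes tested too. At an unadjusted p under 0.05 the last 3 had 1389, 3339 and 5332 genes. Rises made up 76.1% of the 67 calls, 57.6% with normexp and percentile scaling, 86.6% with normexp and quantile scaling, 63.2% with array weights, 65.1% with an intensity trend and 0.562% with spike-in scaling. With the percentile taken over spots, also added later, 98 genes were called, 57.1% higher. Leaving out each array in turn gave 0 to 2 members higher, 0 to 6 lower, 0 to 3776 genes called in all and a member median of -0.08 to 0.002. The member median was 0.087 with quantile scaling, 0.083 with median scaling and -0.53 with spike-in scaling. With the replicate number as a block (replicate block) no gene passed, with 3231 at an unadjusted p under 0.05, and Crlf2 had an adjusted p of 0.0773. The numbers were not taken to pair samples, since their deviations correlated at -0.26, -0.12, 0.44 and 0.35 over genes for numbers 1 to 4, and not every sample correlated best with its own number.

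Signs turned for Il11ra1 (0.12 with quantile and 0.12 with median scaling, 0.044 and 0.088 with normexp and percentile or quantile scaling, 0.019 without young 1 and aged 2), Il6r (0.11, 0.083, 0.020 and 0.021 in the first 4 of these), Il33 (0.033 with quantile and 0.031 with median scaling), Il6st (0.049 with median scaling, 0.032 with array weights) and Il36rn (-0.0067 with the percentile over probes above background, -0.37 with spike-in RNA). With spike-in RNA they also turned for Ccl2 (-0.34), Ccr9 (-0.35), Il13ra1 (-0.26), Il17ra (-0.077), Il17re (-0.28), Il18 (-0.32), Ccl24 (-0.15), Ccl3 (-0.32), Ccl22 (-0.24), Il17b (-0.41), Il2rg (-0.42) and Il3ra (-0.26). Cxcl1 turned to 0.076 with quantile and 0.040 with median scaling, and to 0.018 and 0.034 with normexp and percentile or quantile scaling. Il2rg turned to -0.075 under quantile scaling, to -0.057 when normexp came before it, and to -0.053 with the percentile over probes above background and -0.016 with that over spots, and Il17b to -0.047 and -0.0099 in the last 2. Ccl3 was -0.37 with array weights and -0.38 without young 1 and aged 2. Ccl2 was -0.23 with array weights and -0.045 without young 1 and aged 2, and Il17re -0.014 and -0.053. Leaving out single arrays moved Ccl2 from -0.31 to 0.38, Il17re from -0.0060 to 0.35, Il33 from -0.24 to 0.0059, Il11ra1 from -0.11 to 0.0034, Il6r from -0.18 to 0.048, Ccl3 from -0.45 to 0.53, Cxcl1 from -0.32 to 0.076, Il17b from -0.019 to 0.10 and Il2rg from -0.070 to 0.21. The cause was not tested. When all spots of a probe had to be above background, the member probes numbered 33, 51, 53 and 43 in young and 44, 35, 30 and 47 in aged samples. Dim probes near background limit the folds of Il23a, Cxcl14 and Cxcl12.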
